A study of Drosophila melanogaster with 40 samples.

Results

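One-week-old male Drosophila melanogaster that carried the wild-type feline MYBPC3 transgene (WT) were compared with males of the attP2 control genotype after both had been exercised. The comparison was defined by the sample titles and held 4 of the 40 RNA-seq libraries of the series, 2 of WT exercised males and 2 of attP2 exercised males, each made from a pool of 10 whole flies aged 1 week and frozen after 1 h of exercise on a shaker. WT males carried UAS-WT-MYBPC3 over the TinCΔ4-Gal4 driver on the third chromosome, and attP2 males carried the empty attP2 landing site over the same driver, both in a w1118/y, w; Chr2/+ background. The series also holds exercised males with the A31P and R820W variants of the transgene, nonexercised males and females, exercised females and larvae of the same 4 genotypes.

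MYBPC3 encodes myosin binding protein C, a thick-filament protein of vertebrate striated muscle, and mutations in it are associated with hypertrophic cardiomyopathy in cats and humans. In the Gal4/UAS system the yeast activator Gal4 is made only where its driver is active, here in the heart tube, and switches on the gene placed behind the UAS sequence. The fly heart is a thin dorsal vessel of few cells, surrounded in a whole-body extract by flight and leg muscle, fat body, gut, eye and testis. The fat body stores triglyceride in droplets coated with perilipins and secretes antimicrobial peptides, so that its genes report on feeding, energy use and immune state. In these whole-body libraries, fewer cells of a type and less RNA per cell cannot be told apart.

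The transgene transcript was not analysed here. The transgene vector also carries white (w), the pigment transporter gene used as its marker, which served as the check of the labels. The gene w had 13.8 and 14.3 CPM (counts scaled to a common library size) in WT exercised males, against 9.57 and 9.79 CPM in attP2 exercised males. The groups did not overlap, and the Log2FC (log2 of WT over attP2) was 0.53 ± 0.10 (SE) with an adjusted p of 0.0596, just short of the threshold.

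Total counts in the 8 exercised male libraries lay between 19169444 and 26815187. Among 18 heart genes, 17 passed the filter on low counts, and their summed level was 2796 and 2956 CPM in WT males and 2387 and 2425 CPM in attP2 males. Most of that sum was Ca-P60A, the calcium pump gene of all muscles (2514 and 2671 CPM in WT males, 2076 and 2123 CPM in attP2 males). The defining heart gene tin had 1 and 3 counts in WT males and 2 and 4 counts in attP2 males, and did not pass the filter. Summed yolk and eggshell genes, which mark adult females, were at 20.8 to 27.4 CPM in 6 of the 8 exercised male libraries, the WT and attP2 ones included, but at 6452 CPM in A31P replicate 2 and 537 CPM in R820W replicate 2. Those libraries are in neither group of the comparison of WT with attP2, but enter its estimate of the spread, its scaling and its filter on low counts. Of 26 yolk and eggshell genes, 25 passed that filter, against 7 in nonexercised males. The first principal component, with 55.28% of the variance, set both libraries apart from the other 6. The leading counts are therefore given with and without them. All exercised males ran in lane 3 of 1 flow cell, and nonexercised males on another flow cell, with replicate 1 of each genotype in lane 7 and replicate 2 in lane 8, so that exercise and flow cell cannot be told apart. The labels do not say whether the pools of a genotype came from separate crosses, and p-values measure the spread between these libraries.

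A total of 158 of 13912 tested genes (1.14%) were significantly differentially expressed between WT and attP2 exercised males at an adjusted p under 0.05 and a Log2FC above 0.5 or below −0.5. Of these, 75 were upregulated (0.539% of the genes tested) and 83 were downregulated (0.597%). In all 158 genes both WT libraries lay on the same side of both attP2 libraries, which was also the case in 63.2% of the genes tested. Absence of overlap below, in called genes, uncalled genes and sums alike, is therefore a description and no further support. In the fit without A31P replicate 2 and R820W replicate 2, 814 genes passed (5.85%), 479 up (3.44%) and 335 down (2.41%), and 157 of the 158 were among them. The exception was CG10396. That fit tested the same genes and held 1 library each of A31P and R820W, so that its spread came from the WT and attP2 pairs alone. As the WT and attP2 libraries are the same, its calls are no independent support for the 158. The shares over all genes tested are the background for the counts of called list members below. By the quasi-likelihood test 3037 of the 13912 genes had an unadjusted p under 0.05, the background for such counts below. Leaving out 1 WT or 1 attP2 library from the edgeR fit left 7 libraries, and in these the quasi-likelihood test called 0 genes without WT replicate 1 (1766 at an unadjusted p under 0.05), 0 without WT replicate 2 (1398), 5 without attP2 replicate 1 and 4 without attP2 replicate 2. With both variant libraries left out as well, 1 pair of replicates remained to estimate the spread. The counts of those fits are therefore listed only among the alternative settings below, and no conclusion is drawn from them.

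The 158 genes comprised 127 protein-coding genes, 21 noncoding RNA genes, 8 pseudogenes and 2 that could not be matched to the annotation. The fitted Log2FC exceeded 2 in size in 31 of them and was under 1 in size in 81. Of the 158, 55 overlap another annotated gene, 42 of them a gene on the other strand. The use of strand in counting was not stated, so reads of such genes cannot be assigned with certainty.

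Among the strongest differences were genes read almost exclusively in 1 genotype. CG32786 (Gem4b in the current annotation, on X) had 55 and 74 counts in WT males and 0 counts in both attP2 males, at least 18.5-fold higher in WT against a floor of 3 counts per library. Hsp70Bbb, 1 of 6 nearly identical copies of the heat-inducible Hsp70 chaperone, had 0 counts in both WT males against 325 and 392 counts in attP2 males, at least 115-fold lower in WT. The noncoding genes CR31700, CR44539 and CR44074 were likewise at 0 in both attP2 males and were at least 6.45-fold, 5.88-fold and 3.16-fold higher in WT males.

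Several other noncoding RNAs were near the floor in 1 genotype. The antisense RNA gene CR45271, inside CG42700 on the other strand, had 68 and 74 counts in WT males against 0 and 2 in attP2 males, a ratio of 73 (95% exact counting interval 19.9 to 609). CR44080 was 16.2-fold higher in WT males by counts (6.02 to 61.3). CR45893 had 2.62 and 2.35 CPM in WT males against 0 and 0.148 CPM in attP2 males, and CR32011 had 2.14 and 2.58 CPM in WT males against 0 and 0.26 CPM in attP2 males. Together with CR42844 (3.76 and 4.03 CPM in WT males, 0.518 and 0.556 CPM in attP2 males, Log2FC 2.84 ± 0.23, adjusted p = 0.007) and CR44180 (Log2FC 2.51 ± 0.34), these made up most of the 12 genes highest in WT.

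Of the protein-coding genes with reads in both genotypes, CG34173 had 4.85 and 7.24 CPM in WT males against 0.673 and 1.04 CPM in attP2 males (Log2FC 2.79 ± 0.30). Npc2e, of the NPC2 family of lipid-binding proteins, had 10.9 and 6.07 CPM in WT males against 1.14 and 1.3 CPM in attP2 males (Log2FC 2.79 ± 0.41). The WT replicates of Npc2e differed from each other more than those of most leading genes, and still stood clear of attP2. For CG43680 on 3L the values were 9.04 and 9.05 CPM in WT males and 2.33 and 2.78 CPM in attP2 males (Log2FC 1.82 ± 0.15, adjusted p = 0.007).

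Among the genes lowest in WT were those of a pair of neuropeptides. AstCC, the gene of the peptide allatostatin CC, had 2 and 3 counts in WT males against 48 and 59 counts in attP2 males, 20.8-fold fewer in WT (8.64 to 65.4). CNMa, the gene of the CNMamide peptide, had 0.393 and 0.317 CPM in WT males against 2.33 and 1.67 CPM in attP2 males (Log2FC −2.46 ± 0.40, adjusted p = 0.0441). Both were low in every library and did not overlap between genotypes.

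CG11034 on 2L had the lowest adjusted p of all genes. It had 9.13 and 9.51 CPM in WT males against 49.2 and 49.4 CPM in attP2 males (Log2FC −2.40 ± 0.12, adjusted p = 0.00139). CG17571, also on 2L, had 6.51 and 4.8 CPM in WT males against 84.2 and 82 CPM in attP2 males (Log2FC −3.87 ± 0.39). In both genes the replicates lay close together and the genotypes far apart.

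The remaining genes of the lower end were CG13946 (Log2FC −4.88), CG8147 (phu in the current annotation, −3.03), CG6012 (−2.60), CR44735 (−2.50) and CG42329 (−2.29), with CR43304 and CR44602 22.4-fold (8.44 to 83.8) and 9.23-fold (3.99 to 26.2) fewer in WT by counts. Ndae1, which encodes a sodium-driven anion exchanger, was at 52.7 and 54.8 CPM in WT males against 123 and 125 CPM in attP2 males (Log2FC −1.21 ± 0.10, adjusted p = 0.007). CR43684, a noncoding gene inside Sytbeta, fell by 1.46 on the log2 scale (adjusted p = 0.00366).

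**Figure D1:**
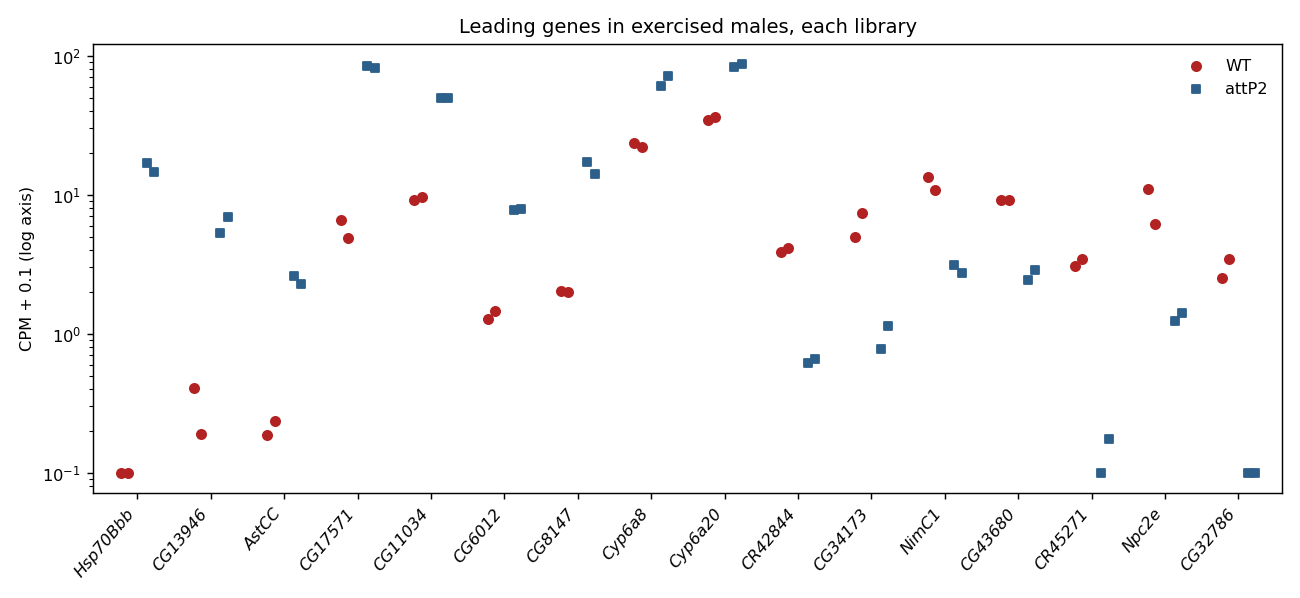
CPM plus 0.1 (log axis) of 16 leading genes in each WT library (circles) and each attP2 library (squares) of exercised males, ordered from genes lower in WT on the left to genes higher in WT on the right. The WT circles lie below the attP2 squares from Hsp70Bbb to Cyp6a20 and above them from CR42844 to CG32786. None of the 16 genes overlaps, which also holds for all 158 called genes and for 63.2% of the genes tested.

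The called genes were unevenly spread over the chromosomes. Chromosome arm 2L held 76 of the 158 (48.1%), against 19.3% of the genes tested, and 19 of the 31 genes with a fitted Log2FC above 2 in size. Of the genes tested on 2L, 2.83% were called (40 up and 36 down), compared with 1.07% on 2R, 0.632% on 3L, 0.584% on 3R and 0.508% on X. On the small chromosomes, 2 of 100 genes of chromosome 4 and 2 of 26 Y-linked genes were called. The 2L genes were not gathered at 1 place, and 11 of the 12 windows of 2 Mb along the arm held between 2 and 10 called genes, with 1 called gene in the window from 20 to 22 Mb.

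Without A31P replicate 2 and R820W replicate 2, 255 of 2682 genes of 2L were called (9.51%), compared with 5.66% on 2R, 5.54% on 3L, 4.79% on 3R and 3.28% on X, so that 2L held 31.3% of the 814 called genes. The transgene and its control site lie on the third chromosome. Why 2L held more called genes was not tested.

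**Figure D2:**
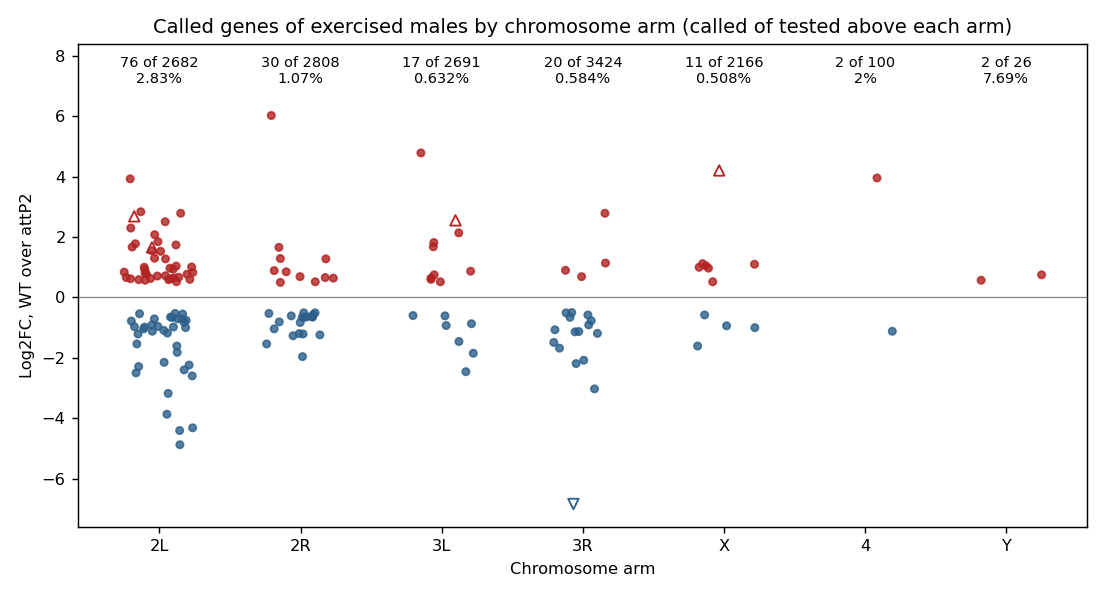
Log2FC (WT over attP2, exercised males) of each of the 158 called genes by chromosome arm, with the number called of those tested and the percentage printed above each arm; genes higher in WT are red, genes lower in WT are blue, and open triangles are the bounds of genes at 0 in 1 genotype. Arm 2L holds 76 of the 158 points, in both directions and over the whole range of sizes.

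Nonexercised males of the same genotypes were separate libraries and share none with the exercised comparison. In them, 133 of 13706 tested genes (0.97%) were called, 22 to 81 when WT replicate 1, WT replicate 2 or attP2 replicate 1 was left out and 1378 without attP2 replicate 2. Of the genes called in exercised males, 45 were called in the same direction in both conditions, 28.5% of the exercised list and 33.8% of the nonexercised list. On 2L the shared genes were 29 of 76 (38.2%), and on the other chromosomes 16 of 82 (19.5%). Of the 73 exercised 2L genes tested in nonexercised males, 70 had the same sign there, against 62 of 81 on other chromosomes. Act88F was the only gene called in opposite directions. Summed yolk and eggshell genes were at 136 CPM in attP2 nonexercised replicate 1, against 26.1 CPM in attP2 replicate 2 and 21.5 and 27 CPM in WT. That attP2 library enters every comparison below that uses nonexercised attP2 males. The fits without it held 1 attP2 nonexercised library, so the loss of its yolk and eggshell transcripts and of a replicate cannot be told apart.

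Leading genes of the exercised comparison that were also called in nonexercised males included CG17571 and CG11034. CG17571 had 1.65 and 1.05 CPM in WT nonexercised males against 45.1 and 43.7 CPM in attP2 nonexercised males, and CG11034 had 8.98 and 7.9 CPM in WT against 39.8 and 44.9 CPM in attP2. NimC1, the Nimrod phagocytosis receptor of plasmatocytes, had 13.2 and 10.7 CPM in WT exercised males against 3 and 2.63 CPM in attP2 exercised males (Log2FC 2.08 ± 0.28), and 11.6 and 9.79 CPM in WT nonexercised males against 2.37 and 2.88 CPM in attP2 nonexercised males (Log2FC 2.03). In each of these 3 genes neither genotype pair overlapped, in either condition. Over all 154 called genes tested in both conditions, the median Log2FC in nonexercised males was 0.63 for the 73 genes higher and −0.37 for the 81 genes lower in WT exercised males, both smaller in size than in exercised males, where the values chose the genes.

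In exercised females, 8 of 10712 genes were called (0.0747%), and 5 of the 8 were also called in the same direction in exercised males. Without attP2 replicate 1 or attP2 replicate 2 of the females edgeR's quasi-likelihood test called 0 genes, with 150 and 182 at an unadjusted p under 0.05. Genes called in exercised males, nonexercised males and exercised females alike were CG17571, CG17322, crq and Cyp28d1, all on 2L and all lower in WT. CG17322 (Ugt36E1, a UDP-glycosyltransferase) had 12.1 and 13.6 CPM in WT exercised males against 26.1 and 29.7 CPM in attP2 exercised males (Log2FC −1.12 ± 0.12), and −1.03 was its Log2FC in exercised females. The gene crq encodes Croquemort, a CD36-family receptor with which hemocytes take up apoptotic cells. It was at 73.5 and 75.6 CPM in WT exercised males against 119 and 124 CPM in attP2 exercised males (Log2FC −0.71 ± 0.06, adjusted p = 0.00719).

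**Figure D3:**
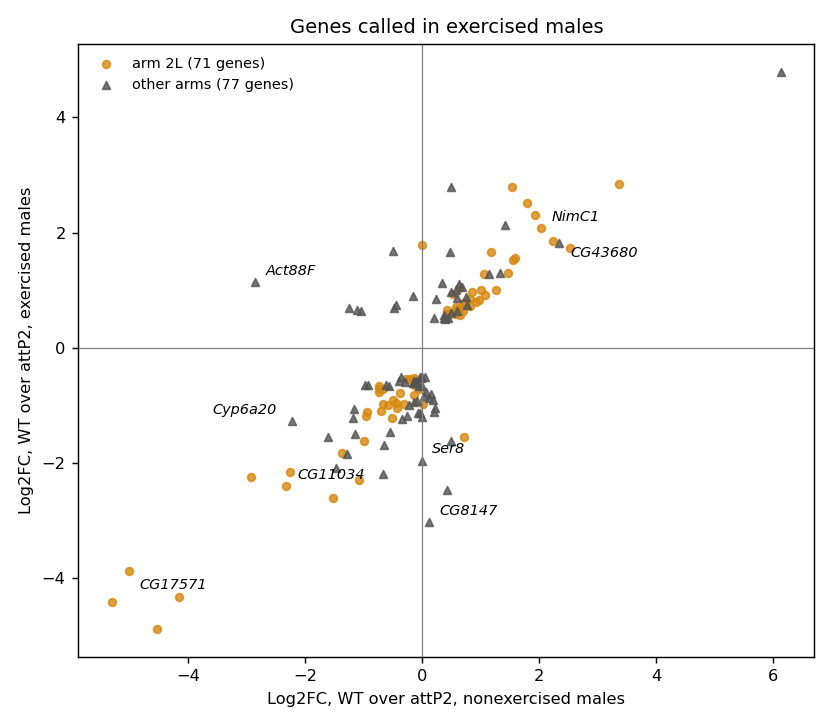
Log2FC of WT over attP2 in nonexercised males (x axis) and exercised males (y axis) for 148 of the 158 genes called in exercised males, with circles for the 71 genes on arm 2L and triangles for the 77 on other arms; genes at 0 in 1 genotype, not tested in nonexercised males or past 7 in size are left out. Circles lie mainly in the quadrants of equal sign, many triangles lie near 0 on the x axis, and Act88F lies farthest to the upper left.

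Genes of fat storage and fatty acid use moved in 1 direction where they were called. Of 21 such genes tested, 6 fell in WT exercised males and none rose (0.597% and 0.539% of all genes). A Log2FC below 0 was found in 19, with a median of −0.32 against 0.00 over all genes tested. Without A31P replicate 2 and R820W replicate 2, 8 of the 21 fell (2.41% of all genes). Their summed level was 14373 and 14475 CPM in WT males against 17153 and 18080 CPM in attP2 males. The sums did not overlap, and Desat1 and CG3523 were the most abundant members.

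The genes of the droplet coat were among those that fell. Lsd-1, which encodes a perilipin that governs lipolysis at the droplet surface, had 154 and 135 CPM in WT males against 338 and 319 CPM in attP2 males (Log2FC −1.19 ± 0.18, adjusted p = 0.0332). Lsd-2, the gene of the second fly perilipin, which protects stored fat, had 221 and 226 CPM in WT males against 345 and 323 CPM in attP2 males (Log2FC −0.58 ± 0.08, adjusted p = 0.0239). Neither gene overlapped between genotypes. Jabba, which anchors histones to lipid droplets and was singled out after its values were seen, had 98 and 84.7 CPM in WT males against 209 and 210 CPM in attP2 males (Log2FC −1.20 ± 0.18), a difference of the same size as that of Lsd-1.

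Genes of fat synthesis and breakdown fell as well. CG3523, the fatty acid synthase gene FASN1 in the current annotation, had 2992 and 2972 CPM in WT males against 4282 and 4380 CPM in attP2 males (Log2FC −0.54 ± 0.08, adjusted p = 0.033). The gene mdy, of a diacylglycerol acyltransferase that makes triglyceride, had 35.2 and 34.1 CPM in WT males against 60.3 and 58.5 CPM in attP2 males (Log2FC −0.78 ± 0.09, adjusted p = 0.016). It overlaps CG13280 on the other strand, which was called in the other direction (Log2FC 0.65).

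The acyl-CoA synthetase gene bgm fell by 0.91 on the log2 scale and the lipase gene Lip4 by 1.04. Outside the list, fabp, which encodes the fatty acid binding protein and was chosen after its values were seen, had 235 and 231 CPM in WT males against 325 and 338 CPM in attP2 males (Log2FC −0.51 ± 0.09). Genes of the list that did not pass included the lipase genes mag (Log2FC −0.98, adjusted p = 0.124) and bmm (Log2FC −0.34, adjusted p = 0.174), ACC (Log2FC −0.19) and Desat1 (Log2FC 0.02). The uncalled members thus ranged over the same direction and included values at 0.

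Of 16 insulin and starvation genes, sug alone was called. It encodes Sugarbabe, a zinc-finger factor that responds to dietary sugar, and had 13.2 and 12.7 CPM in WT males against 30.1 and 30.9 CPM in attP2 males (Log2FC −1.24 ± 0.17, adjusted p = 0.0288). Without both variant libraries, 3 of the 16 fell, and these added AkhR, the receptor gene of adipokinetic hormone (31.4 and 25.4 CPM in WT males against 54.7 and 57.3 CPM in attP2 males, Log2FC −0.98), and Ilp6 (Log2FC −0.58).

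In nonexercised males none of 20 fat genes was called by the quasi-likelihood test (5 at an unadjusted p under 0.05, against 2248 of all 13706 genes). The likelihood ratio test called 0 and DESeq2 1, and the median Log2FC of the 20 was −0.09. Lsd-1 had a Log2FC of −0.26 there, Jabba of −0.00, fabp of −0.00 and sug of −0.35. None of these genes was called in the test of the difference between the conditions, so a difference between exercised and nonexercised males was not shown for any of them.

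**Figure D4:**
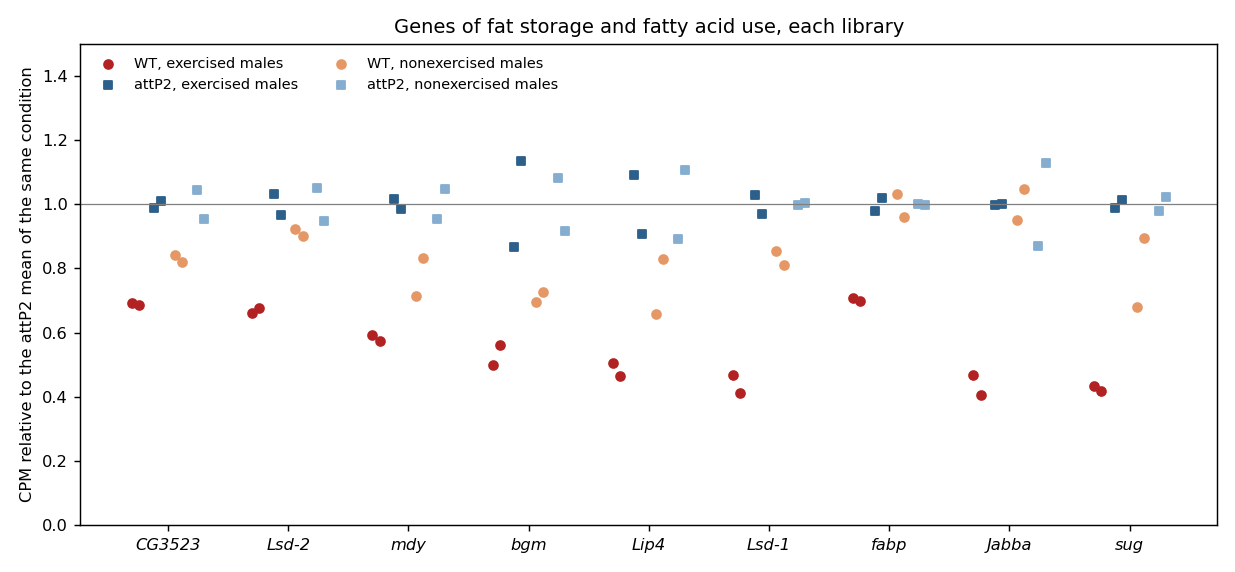
CPM of 9 genes of lipid droplets, fatty acid synthesis and sugar response in each library, relative to the attP2 mean of the same condition (line at 1): WT exercised males (red circles), attP2 exercised males (dark blue squares), WT nonexercised males (orange circles) and attP2 nonexercised males (light blue squares). All 9 genes were called lower in WT exercised males, so that their WT exercised libraries lie below the attP2 exercised libraries by selection. WT nonexercised libraries of fabp and Jabba lie among the attP2 nonexercised ones. Members of the list that were not called are not shown.

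The Jonah and trypsin-like genes encode secreted digestive proteases of the midgut. Of 32 tested, 4 fell and none rose in WT exercised males (0.597% and 0.539% of all genes), with a median Log2FC of −0.35. Without both variant libraries 9 fell and 2 rose (2.41% and 3.44% of all genes). Ser8 had 3.1 and 3.35 CPM in WT males against 15.6 and 9.5 CPM in attP2 males (Log2FC −1.96 ± 0.26, adjusted p = 0.0239). Jon99Fii had 43.3 and 39.8 CPM in WT males against 107 and 76.3 CPM in attP2 males (Log2FC −1.14 ± 0.15). The attP2 replicates of both differed by more than the WT replicates, and the genotypes did not overlap. Jon25Biii (Log2FC −0.97) and Jon65Aii (Log2FC −0.60) were the others. Proteases of this class are near-identical neighbours in part, and the treatment of reads that map to several places was not stated.

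Among 20 genes of sugar-digesting enzymes none was called by the quasi-likelihood test, while 13 had an unadjusted p under 0.05 and the likelihood ratio test and DESeq2 each called 8. Without both variant libraries 3 rose and 6 fell. The 6 that fell were all members of the lysosomal alpha-mannosidase family, LManI to LManVI in the current annotation, which lie at 2 places on 2L. LManV (CG9466) had 33.9 and 48.7 CPM in WT males against 107 and 137 CPM in attP2 males, and LManVI (CG9468) had 36.2 and 49.6 CPM in WT males against 100 and 124 CPM in attP2 males. LManII (LM408) was at 417 and 430 CPM in WT males against 604 and 647 CPM in attP2 males. The adjusted p in the fit of all 8 libraries was 0.0691 for LManV, 0.0769 for LManVI and 0.0583 for LManII. The 3 that rose were the maltase genes Mal-A4, Mal-A7 and Mal-B2 (Log2FC 0.80 for Mal-A4, 0.60 for Mal-A7 and 0.54 for Mal-B2).

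Cytochrome P450 enzymes oxidise hormones, lipids and foreign compounds. Without both variant libraries, 4 of 80 tested rose and 13 fell (3.44% and 2.41% of all genes). In the fit of all 8 libraries 2 rose and 6 fell (0.539% and 0.597% of all genes), with a median Log2FC of −0.10. Of these 8 called genes, 5 lie next to each other on 2R between positions 14873953 and 14889010 of release 6. Cyp6a8 had 23.6 and 21.8 CPM in WT males against 60.3 and 71.5 CPM in attP2 males (Log2FC −1.54 ± 0.13, adjusted p = 0.007). Cyp6a20, a gene known for its effect on male aggression, had 34.1 and 36.3 CPM in WT males against 83.3 and 86.5 CPM in attP2 males (Log2FC −1.27 ± 0.13). Cyp6a23 fell by 1.21 on the log2 scale (adjusted p = 0.007) and Cyp6a9 by 0.65.

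Cyp6a17, the neighbour of Cyp6a23 and linked to temperature preference, was the exception in the cluster. It had 83.9 and 89.7 CPM in WT males against 48.1 and 45.9 CPM in attP2 males (Log2FC 0.89 ± 0.10, adjusted p = 0.0138). Cyp6a17 and Cyp6a23 are close paralogues, and reads shared between them could be assigned to either. All 5 genes were called in the same direction in nonexercised males, Cyp6a9 no longer with the lane as a block (adjusted p = 0.0611), with a Log2FC of −1.60 for Cyp6a8, −2.22 for Cyp6a20 and 0.75 for Cyp6a17.

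The variant genotypes had unequal values at this cluster, a difference that was not tested. Against the same attP2 libraries, Cyp6a8 had a Log2FC of −1.44 in A31P exercised males and −0.13 in R820W exercised males, Cyp6a20 of −1.29 in A31P and 0.04 in R820W males, and Cyp6a17 of 0.82 in A31P and −0.18 in R820W males. These comparisons, in which 79 genes (0.568%) were called for A31P and 117 (0.841%) for R820W, share the attP2 libraries with that of WT. Of the 158 genes called in WT, 50 were called in the same direction in A31P, 81 in R820W and 40 in both. Without A31P replicate 2 and R820W replicate 2, each 1 of the 2 libraries of its genotype, Cyp6a8 was at −1.55 in A31P and −0.04 in R820W males, Cyp6a20 at −1.22 in A31P and 0.18 in R820W males, and Cyp6a17 at 0.85 in A31P and −0.09 in R820W males. Values nearer to 0 in R820W than in WT and A31P males were also found in 2 genes singled out after their values were seen. These were Ciao1 beside the cluster (Log2FC −0.51 in WT, −0.38 in A31P and −0.02 in R820W males, and without both libraries −0.53 in WT, −0.48 in A31P and −0.02 in R820W males) and CG42700 elsewhere on 2R (−0.64 in WT, −0.74 in A31P and 0.16 in R820W males, and without both libraries −0.65 in WT, −0.81 in A31P and 0.20 in R820W males).

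Outside the cluster, Cyp310a1 rose (13.4 and 12.3 CPM in WT males against 6.42 and 6.31 CPM in attP2 males, Log2FC 1.01 ± 0.13), and Cyp28d1 and Cyp18a1 fell. Cyp18a1 inactivates the steroid hormone ecdysone and had 19.9 and 19.8 CPM in WT males against 40.2 and 39 CPM in attP2 males (adjusted p = 0.0411, SE of the Log2FC 0.16). Cyp28d1 was at 68.5 and 74.2 CPM in WT males against 111 and 115 CPM in attP2 males (Log2FC −0.66 ± 0.10). Both had replicates within a narrow range and no overlap.

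Some genes of the eye fell as well. Of 25 pigment and phototransduction genes, 3 fell and none rose (0.597% and 0.539% of all genes), and 20 had a Log2FC below 0 (median −0.22). Without both variant libraries 5 fell and 1 rose (2.41% and 3.44% of all genes). Rh5 and Rh6 encode the rhodopsins of the R8 photoreceptors, the cells that compare blue and green light. Rh5 had 44 and 44 CPM in WT males against 63.9 and 63.2 CPM in attP2 males (Log2FC −0.53 ± 0.07, adjusted p = 0.0229), and Rh6 had 38.6 and 38.8 CPM in WT males against 57.8 and 57.7 CPM in attP2 males (Log2FC −0.58 ± 0.08, adjusted p = 0.0286). The light-gated channel gene trpl had 297 and 305 CPM in WT males against 424 and 468 CPM in attP2 males (Log2FC −0.57 ± 0.08). The replicates of Rh5 and Rh6 were nearly equal, and those of trpl lay farther apart in attP2.

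The major rhodopsin gene ninaE had 3242 and 3178 CPM in WT males against 4281 and 4217 CPM in attP2 males, with a Log2FC of −0.40 under the threshold of size and an adjusted p of 0.0637. The gene rdhB, of a retinol dehydrogenase of eye pigment cells, was chosen after its values were seen and had 8.86 and 10.6 CPM in WT males against 20.9 and 20 CPM in attP2 males (Log2FC −1.07 ± 0.15, and −1.17 in nonexercised males, called in both).

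Immune peptides are secreted into the hemolymph, mainly by the fat body, after infection. Of 37 genes tested, 3 rose in WT exercised males and none fell (0.539% and 0.597% of all genes). A Log2FC above 0 was found in 32, with a median of 0.61. Without both variant libraries 20 rose and none fell (3.44% and 2.41% of all genes). IM1, a short Bomanin released by the fat body in the Toll response, had 145 and 180 CPM in WT males against 101 and 107 CPM in attP2 males (Log2FC 0.64 ± 0.11, adjusted p = 0.05 after rounding, just under the threshold). IM14, an antifungal Daisho peptide, had 153 and 176 CPM in WT males against 104 and 104 CPM in attP2 males (Log2FC 0.66 ± 0.08, adjusted p = 0.0204). IM23, another Bomanin gene, rose as well (Log2FC 0.69 ± 0.12). The WT replicates varied more than the attP2 replicates in the first 2 and did not overlap them.

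Genes of antibacterial peptides had larger differences but wider spread. AttA had 254 and 234 CPM in WT males against 86.8 and 67.9 CPM in attP2 males (Log2FC 1.66, adjusted p = 0.0897, and 5.62e-05 without both variant libraries). CecA2 had 55.7 and 50.1 CPM in WT males against 13.7 and 10.1 CPM in attP2 males (Log2FC 2.16, adjusted p = 0.0691, and 3.29e-05 without them). Neither overlapped between genotypes, whereas Dro (77.6 and 33.2 CPM in WT males, 61 and 44.3 CPM in attP2 males) did. Of 12 peptidoglycan recognition genes the quasi-likelihood test called none, with 4 at an unadjusted p under 0.05 and 3 called by the likelihood ratio test and by DESeq2, and without both variant libraries 3 rose.

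In nonexercised males none of 33 immune peptide genes was called by the quasi-likelihood test. By that test 22 had an unadjusted p under 0.05, against 2248 of all 13706 genes. The likelihood ratio test called 12 and DESeq2 called 4, and the median Log2FC was −1.12. Summed immune peptides were at 4774 and 4710 CPM in WT exercised males against 3278 and 3375 CPM in attP2 exercised males. In nonexercised males the sums were 1137 and 1230 CPM in WT against 3425 and 1230 CPM in attP2, so that 1 attP2 nonexercised library stood apart from the other 3. No immune peptide gene was called in the test of the difference between the conditions.

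Of 20 hemocyte genes, NimC1 rose and crq and Sr-CI fell. Sr-CI encodes a scavenger receptor for bacteria and had 15.1 and 12.6 CPM in WT males against 22.5 and 22.8 CPM in attP2 males (Log2FC −0.71 ± 0.13, adjusted p = 0.05 after rounding). Hml, a marker of most larval and adult plasmatocytes, was at 314 and 304 CPM in WT males against 330 and 380 CPM in attP2 males (Log2FC −0.20). Without both variant libraries 6 rose and 4 fell, and the list as a whole moved in neither direction (median −0.07).

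Male-biased genes were defined in libraries the comparison did not use, as those with at least 10-fold higher CPM in nonexercised attP2 males than in nonexercised attP2 females. They made up 2992 of the 13912 genes tested (21.5%), but 46 of the 75 upregulated genes (61.3%) and 9 of the 83 downregulated genes (10.8%). Over all 2992, the median Log2FC was 0.35, and 2460 lay above 0. The median was similar on each large arm, from 0.33 on 2L to 0.37 on X.

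The testis and sperm list showed the same, with 48 of 50 genes above 0 and a median Log2FC of 0.36, while 1 was called. That gene was Mst77Y-7 (14 and 15.3 CPM in WT males against 8.07 and 9.27 CPM in attP2 males, Log2FC 0.75), 1 of many near-identical Y-linked copies of a sperm chromatin protein gene, so that its own level is uncertain. Summed testis and sperm genes were at 7293 and 7546 CPM in WT males against 6036 and 6330 CPM in attP2 males. The sperm tail tubulin gene betaTub85D had 556 and 582 CPM in WT males against 417 and 437 CPM in attP2 males (Log2FC 0.42, adjusted p = 0.0778). Neither the sums nor betaTub85D overlapped between genotypes. In nonexercised males 45 of 49 testis and sperm genes lay above 0 as well, with a median Log2FC of 0.28.

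All 13 genes of the Y chromosome list, active in the male germline, had a Log2FC above 0 (median 0.57), with none called by the quasi-likelihood test in the fit of all 8 libraries and 9 called without both variant libraries. At an unadjusted p under 0.05 they were 10 of 13, and the likelihood ratio test and DESeq2 each called 3. In nonexercised males 12 of 13 Y chromosome genes lay above 0 (median 0.38). The axonemal dynein gene kl-3 had 57.6 and 60.7 CPM in WT males against 37.9 and 40.4 CPM in attP2 males (Log2FC 0.60, adjusted p = 0.081). Seminal fluid genes, made in the accessory gland, had a median Log2FC of −0.05. The quasi-likelihood test called none of 67 (15 at an unadjusted p under 0.05, against 3037 of all 13912 genes). The likelihood ratio test and DESeq2 each called 1, and 4 rose and 4 fell without both variant libraries.

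Called male-biased genes with values in narrow bands included several relatives of housekeeping genes, chosen after their values were seen. Prosbeta5R2, a paralogue of a proteasome subunit gene, had 18.3 and 18.4 CPM in WT males against 9.47 and 8.46 CPM in attP2 males (Log2FC 1.04 ± 0.12). Ran-like, a relative of the Ran GTPase gene, had 61.4 and 61.8 CPM in WT males against 34.5 and 33 CPM in attP2 males (Log2FC 0.87 ± 0.10), and the male-sterile gene ms(2)34Fe had 102 and 111 CPM in WT males against 60.2 and 59.4 CPM in attP2 males (Log2FC 0.84 ± 0.11). A cluster of neighbouring genes of similar length on X (CG45488, CG45490, CG45493, CG45494 and CG43784) had a Log2FC between 0.97 and 1.12, with CG45490 at 34.6 and 35.2 CPM in WT males against 17.1 and 18.4 CPM in attP2 males (adjusted p = 0.007). If these neighbours are copies of one another, their counts are not independent.

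The transgene encodes a protein of striated muscle, which in flies makes up the flight, leg and body wall muscles as well as the heart. Of 33 muscle structure genes, 1 rose and none fell in WT exercised males (0.539% and 0.597% of all genes), with 29 above 0 and a median Log2FC of 0.25. Without both variant libraries 5 rose (3.44% of all genes). Act88F, the actin gene of the indirect flight muscle, had 106 and 102 CPM in WT males against 40.9 and 53.7 CPM in attP2 males (Log2FC 1.14 ± 0.20, adjusted p = 0.0491). None of the 17 heart genes was called by edgeR's quasi-likelihood test (median −0.03), with or without both variant libraries. At an unadjusted p under 0.05 they were 4 of 17, against 3037 of all 13912 genes, and edgeR's likelihood ratio test and DESeq2 each called 0 of them.

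The direction in nonexercised males was the opposite. There, 19 of the 33 muscle genes fell and none rose, against 0.649% of all genes lower in WT, with a median Log2FC of −0.57, and summed muscle genes were at 26294 and 24849 CPM in WT against 41335 and 37801 CPM in attP2. In exercised males the sums were 31359 and 31364 CPM in WT against 28782 and 28724 CPM in attP2. Act88F was at 56.5 and 54.1 CPM in WT nonexercised males against 397 and 398 CPM in attP2 nonexercised males.

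The difference between the conditions was tested on all 16 male libraries as the interaction of genotype and exercise, and 27 of 14090 genes (0.192%) were called, 21 with a higher (0.149%) and 6 with a lower Log2FC in exercised males (0.0426%). Leaving out 1 library left 5 to 12 genes, except that 132 were called without attP2 nonexercised replicate 2. Of the 27, 11 belong to the muscle list. The difference of Log2FC was 3.95 for Act88F, 3.24 ± 0.32 for Fhos, a formin needed for flight muscle sarcomeres (adjusted p = 0.0014), and 1.38 for Act79B, an actin gene of tubular muscle. Fhos had 495 and 534 CPM in WT exercised males against 241 and 397 CPM in attP2 exercised males, and 301 and 361 CPM in WT nonexercised males against 1972 and 2000 CPM in attP2 nonexercised males. For both genes the attP2 level of nonexercised males lay above every other level. Of the 8 genes the study tested by RNAi in larval hearts, Act88F was called in exercised males, and 7 were called lower in nonexercised males.

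**Figure D5:**
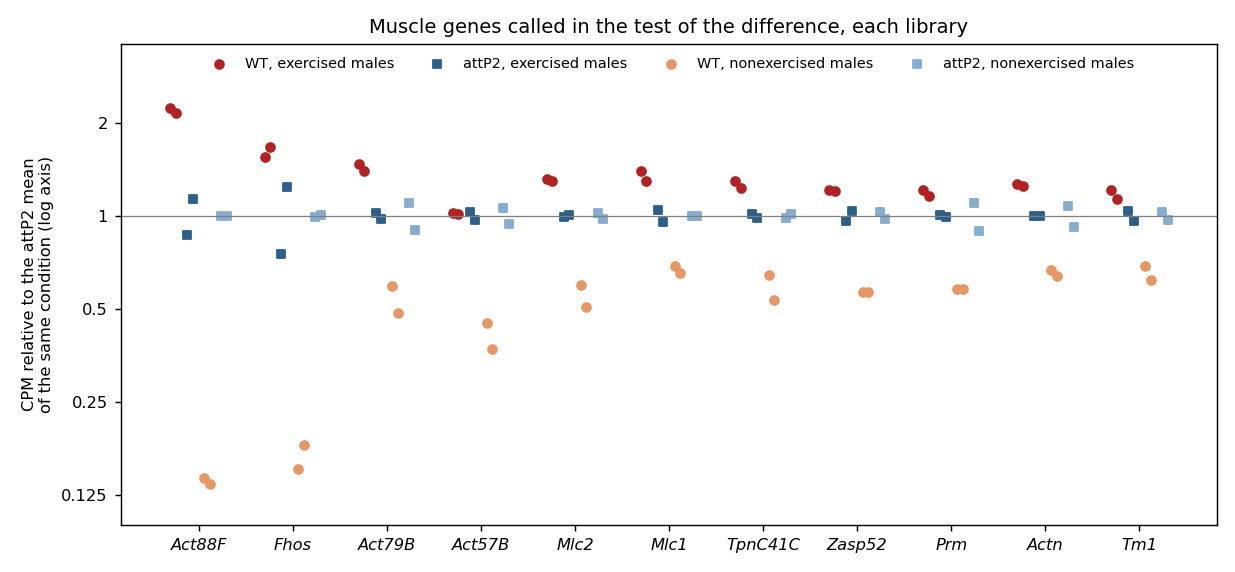
CPM of the 11 muscle genes called in the test of the difference between exercised and nonexercised males, in each library and relative to the attP2 mean of the same condition (line at 1, log axis): WT exercised males (red circles), attP2 exercised males (dark blue squares), WT nonexercised males (orange circles) and attP2 nonexercised males (light blue squares). WT nonexercised libraries lie below 1 in all 11 genes, and WT exercised libraries lie at or above 1.

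The Hsp70 copies differed from one another. Of the 6, 1 fell (Hsp70Bbb) in the fit of all 8 libraries by the quasi-likelihood test, 5 had an unadjusted p under 0.05, and the likelihood ratio test and DESeq2 each called 4. Without both variant libraries 1 rose and 4 fell. Summed over the 6 Hsp70 copies, WT exercised males had 129 and 128 CPM against 190 and 221 CPM in attP2 exercised males. Hsp70Ab had 40.8 and 39.6 CPM in WT males against 121 and 110 CPM in attP2 males (Log2FC −1.52 ± 0.32, adjusted p = 0.066, and 1.07e-05 without both variant libraries), whereas Hsp70Bb had 79.8 and 81.2 CPM in WT males against 41.4 and 46.6 CPM in attP2 males (Log2FC 0.87 ± 0.22, adjusted p = 0.0857, and 0.000119 without them). Hsp70Aa was at 0.83 and 0.453 CPM in WT males against 0.518 and 31.1 CPM in attP2 males, so that its difference rests on attP2 replicate 2, and without that library its Log2FC was 0.31. Reads of these copies are hard to tell apart, and the way multiply mapping reads were counted was not stated.

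None of 20 other heat-inducible chaperones (median Log2FC 0.11) and none of 6 constitutive Hsc70 chaperones (median −0.05) was called by the quasi-likelihood test, with or without both variant libraries. At an unadjusted p under 0.05 they were 6 of 20 and 3 of 6, and the likelihood ratio test and DESeq2 called 0 of either list. Hsp22, the small chaperone of mitochondria, had 38.3 and 44 CPM in WT exercised males against 43.7 and 42.1 CPM in attP2 exercised males, which overlapped, and 6.88 and 9.27 CPM in WT nonexercised males against 54.1 and 97.1 CPM in attP2 nonexercised males. Lsp1gamma, a larval serum storage protein gene with low reads in adults, rose (5.81 and 5.16 CPM in WT males against 1.86 and 1.56 CPM in attP2 males, Log2FC 1.68 ± 0.23), and 5 of 41 larval serum and glue genes passed the filter on low counts.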

How the data were processed

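RNA was extracted from pools of 10 whole flies, and 40 libraries (2 for each of 20 groups) were sequenced. Per the labels and the study's methods, the authors used bcl2fastq for demultiplexing, FastQC for quality, Cutadapt for adapter trimming and TopHat to take out reads of ribosomal RNA. Mapping and counting, to release 6 of the fly genome, were then done by them in CLC Genomics Workbench. The deposited values used here are the authors' raw counts per gene, with no normalization. Whether strand was used, and how reads with several hits were counted, is not given in the sources used here. The deposited table also holds 120 other value columns, the authors' RPKM (counts per gene length and depth), TPM and CPM from the same software, which were not used. The transgene transcript was not analysed here.

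Of 17490 genes, 17216 were matched by identifier to the Ensembl annotation, release 115, and 16942 had the same coordinates in it. Counts were tested with edgeR 4.0.16 in R 4.3.3. Genes were kept by filterByExpr (count minimum 10, total minimum 15), libraries were scaled by TMM, and the quasi-likelihood test (two-sided) was run on the 8 libraries of 4 genotypes of a sex and condition, or on 16 male libraries for the interaction, with Benjamini-Hochberg adjustment over all genes tested. A gene was called at an adjusted p under 0.05 and a Log2FC beyond 0.5 in size. CPM are TMM-normalized. SE was taken from the F statistic. Where both libraries of a genotype were at 0 counts, the fold was bounded with a floor of 3 counts per library, and where 1 to 3 counts were seen the ratio of counts is given with its 95% exact interval. Both cover counting error only.

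Named genes were the 12 highest and 12 lowest Log2FC among called genes without overlap between genotypes, the 10 lowest adjusted p, called members of 35 gene lists, examples from the Hsp70, muscle, heart and RNAi lists, w, genes called alike in the 3 comparisons of males and exercised females, and genes called in the interaction. Members and lists were chosen with earlier results of these data known. Alternatives were edgeR's likelihood ratio test, DESeq2 1.42.0, RLE size factors, library sizes without rRNA and 7SL RNA, no filter, the replicate number as a block, the compared groups alone, omission of A31P replicate 2 and R820W replicate 2, omission of each library in turn, and no threshold on Log2FC. Total counts of all libraries lay between 18493813 and 26917796. In exercised males, rRNA took 4.642 to 8.133% of counts and 7SL RNA 2.094 to 3.562%. Lanes were read from the column headers. In nonexercised males replicate number and lane (7 or 8) coincide, and correlations of same-numbered deviations there were −0.0846 to 0.068. The test procedure was tested on simulated data. Tables and plots were made with Python 3.11.15, pandas 2.3.3 and matplotlib 3.10.9.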

Additional observations from a re-analysis of the deposited data

Results flagged for a closer look

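The WT minus attP2 difference itself differed between exercised and nonexercised males in 27 genes, by edgeR's quasi-likelihood test of the interaction. Exercise and flow cell cannot be told apart, and the count ran from 5 to 12 with 1 library left out, except for 132 without attP2 nonexercised replicate 2. Of the 27, 8 were among the 158 genes called in exercised males. Each value is the Log2FC in exercised males minus that in nonexercised males. With the replicate number as a block, 24 of the 27 were called, and CG3106, Ser8 and jp had an adjusted p of 0.0655, 0.0625 and 0.0636.

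A positive difference was found for 11 genes of the muscle list. It was 3.95 for Act88F, 3.24 for Fhos, 1.38 for Act79B, 1.28 for Act57B and 1.20 for Mlc2. For Zasp52 and TpnC41C it was 1.06, for Prm 1.00, for Mlc1 0.98, for Actn 0.91 and for Tm1 0.80. In these genes attP2 nonexercised males were the highest of the 4 groups in both libraries, except that Tm1 had 637 and 603 CPM there against 632 and 592 CPM in WT exercised males, which overlap. Scp1, a calcium-binding protein gene of muscle, had a difference of 0.89, jp, a junctophilin gene, of 0.63, and Swim, which encodes a secreted carrier of Wingless, of 0.81.

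Among chaperones, the difference was 3.13 for Hsp22, 0.95 for the small heat shock protein gene CG14207 and −0.70 for DnaJ-1, an Hsp40 gene. DnaJ-1 had 193 and 187 CPM in WT exercised males against 254 and 262 CPM in attP2 exercised males, and 141 and 149 CPM in WT nonexercised males against 119 and 128 CPM in attP2 nonexercised males, so that it changed sides. Hsp22 differed mainly in attP2 nonexercised males, where its libraries lay apart (54.1 and 97.1 CPM).

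The other positive differences were 2.15 for Lsp1gamma, 1.99 for CG34423, 1.65 for the tetraspanin gene Tsp42Eh, 1.64 for CG33346 and 1.16 for CG12105. CG12105 had 58.8 and 50.1 CPM in WT exercised males against 33.2 and 31.5 CPM in attP2 exercised males, and 20.1 and 24.2 CPM in WT nonexercised males against 29.5 and 30.7 CPM in attP2 nonexercised males. Neither pair overlapped, and the sides were opposite.

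A negative difference was found for CG3106 (−2.15), Ser8 (−1.97), CG10513 (−1.13), CG42788 (−1.13) and CR43684 (−0.96). CG3106 had 13.1 and 12.3 CPM in WT exercised males against 42.5 and 35.2 CPM in attP2 exercised males, and 49.4 and 44.8 CPM in WT nonexercised males against 36.2 and 30.2 CPM in attP2 nonexercised males. CG42788 had 66.9 and 65.3 CPM in WT exercised males against 144 and 146 CPM in attP2 exercised males, and 121 and 127 CPM in WT nonexercised males against 113 and 142 CPM in attP2 nonexercised males. In all 5, WT exercised males were the lowest of the 4 groups.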

How the results depend on the processing

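In exercised males, 158 genes were called. Where 1 WT or attP2 library was left out together with both variant libraries, 1 pair of replicates remained to estimate the spread. Values of those fits, given below under the name of the 6-library fit, are listed for completeness. They cannot show whether the calls hold without that library, and no conclusion is drawn from them. The likelihood ratio test called 384, DESeq2 365, the fit of the compared groups alone 832, the fit without A31P replicate 2 and R820W replicate 2 814, and RLE scaling, library sizes without rRNA and 7SL RNA and no filter 137, 149 and 130. With 1 library left out the count was 0 to 5 in the fit of 7 libraries, in which the lone library is assumed to vary like those of the other groups, and 785, 648, 788 and 1007 in the 6-library fit without both variant libraries, which was chosen after seeing the data. The share on 2L was 48.1% as reported, 31.1% with the compared groups alone, 31.3% without both variant libraries, 20 to 25% with 1 attP2 library left out and 30.3%, 32.7%, 29.8% and 29.1% in the 6-library fits. Genes shared with nonexercised males numbered 45 as reported, 104 by likelihood ratio, 92 by DESeq2, 71 without both variant libraries, 0 to 4 with 1 library left out and 71, 68, 69 and 67 in the 6-library fits.

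The 133 genes of nonexercised males became 395 by likelihood ratio, 263 by DESeq2, 56 with the compared groups alone and 22 to 1378 with 1 library left out. The 8 of exercised females became 67, 51, 23 and 0 to 12 under the same settings, and 33 with no filter. The 27 of the interaction became 128, 134, 101 and 5 to 132 under those settings, and 44 with RLE scaling, 48 with no filter and 134 without both variant libraries. The 79 of A31P became 282, 306, 4 and 9 to 1658, and 541 without both variant libraries. The 117 of R820W became 356 and 342 by likelihood ratio and DESeq2, 490 without both variant libraries and 0 to 182 with 1 library left out. The cause of these changes was not tested.

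In exercised males, all in 1 lane, replicate numbers did not pair WT with attP2 (correlation of same-numbered deviations −0.00883). Over all pairs of genotypes the correlations ran from −0.183 to 0.656. The highest was that of A31P with R820W, whose replicate 2 libraries both held yolk and eggshell transcripts. With the replicate block 96 genes were called in exercised males, 1 in exercised females and 28 in the interaction, and 45 of 60 called named genes kept their call. In nonexercised males, where the block is the lane, 125 genes were called, 114 of the 133 among them, with 18 of the 19 muscle genes, and 39 in place of 45 were shared with exercised males.

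Of 1020 values of the 60 called named genes in exercised males under the alternatives, 754 kept their call and 266 did not, with no change of sign. Of 102 values of the 6 uncalled ones, 62 stayed uncalled, 32 passed and 8 changed sign. Hsp70Aa (−4.62) was at 0.31 without attP2 replicate 2, in the fit of 7 libraries and with both variant libraries left out as well. Its lowest value was −5.58 without attP2 replicate 1. Hsp70Ba (0.01) was at −0.02 by DESeq2 and by RLE scaling. In the fit of 7 libraries it ran from −0.17 without WT replicate 1 or attP2 replicate 2 to 0.20 without attP2 replicate 1. With both variant libraries left out as well, it was at −0.15 without WT replicate 1 and −0.17 without attP2 replicate 2. For the 5 genes at 0 counts in 1 genotype, depth allows a bound on the fold alone.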

Other observations

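Several gene groups not described above had few or no called genes in exercised males. Genes of cytosolic ribosomal proteins lay slightly lower in WT, with 81 of 92 below 0 and a median Log2FC of −0.09. The quasi-likelihood test of edgeR called 0 of them, with 13 at an unadjusted p under 0.05 against 3037 of all 13912 genes. The likelihood ratio test and DESeq2 called 0. Of 33 glutathione S-transferase genes (median 0.06) the quasi-likelihood test also called 0, with 7 at an unadjusted p under 0.05 and 0 called by either other test. Glycolytic enzymes had a median of 0.10 in exercised males, with 12 of 17 above 0, and of −0.18 in nonexercised males, with 1 of 17 above 0. None of the 17 was called by the quasi-likelihood test in either condition, and 0 by either other test. At an unadjusted p under 0.05 in the quasi-likelihood test were 4 in exercised males and 3 in nonexercised males (2248 of all 13706 genes there).

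Among 11 circadian genes, to (takeout), a feeding-related gene driven by the clock, had the widest gap, with 68 and 56.7 CPM in WT exercised males against 111 and 120 CPM in attP2 exercised males (Log2FC −0.89, adjusted p = 0.086 by edgeR's quasi-likelihood test). In nonexercised males to had 104 and 156 CPM in WT against 130 and 159 CPM in attP2, which overlapped. The clock gene tim was at 119 and 108 CPM in WT exercised males and 145 and 137 CPM in attP2 exercised males, and at 502 and 523 CPM in WT nonexercised males and 507 and 526 CPM in attP2 nonexercised males. Its level thus differed several-fold between the exercised and nonexercised libraries of both genotypes, and the role of the time of freezing was not tested.

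Outside males, 98 of the 158 genes were tested in nonexercised females, where 70 had the same sign and 5 were called in the same direction, 3.16% of the exercised male list and 62.5% of the 8 genes called there. In larvae, 135 were tested and 105 had the same sign, and none of the 3 genes that edgeR's quasi-likelihood test called there was among the 158. On 2L these were 55 of 63 in larvae, against 50 of 72 on other chromosomes, and 31 of 37 in nonexercised females, against 39 of 61. No library is shared with exercised males in these comparisons.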
